A study of Mus musculus with 21 samples.

Results

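The transcripts described here encode 10 selenoproteins that are neither glutathione peroxidases nor iodothyronine deiodinases: Selenop, Selenow, Selenom, Selenot, Selenof, Selenos, Selenok, Selenon, Msrb1 and Sephs2. They were picked by gene symbol from the 45777 genes of the deposited tables, with earlier results of these data known. All 10 were found and passed the filter on low counts at both times. The tissue was the thyroid gland of C57BL/6J mice, in a model in which thyroid-stimulating hormone (TSH), the pituitary hormone that drives thyroid growth and hormone synthesis, is overexpressed from injected plasmids.

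The study had 7 groups of 3 libraries. At 1 week there were TSH-MMI, TSH and Empty groups, and at 4 weeks TSH-MMI, TSH, Empty-MMI and Empty groups. TSH mice received the pLIVE-TSHB and pLIVE-CGA plasmids, which encode both subunits of the hormone. TSH-MMI mice received these plasmids and thiamazole (MMI), an antithyroid drug that blocks thyroid hormone synthesis. Empty mice received the plasmid without an insert, and Empty-MMI mice received that plasmid and thiamazole. The sources used here do not give the age or sex of the mice or the dose of the drug. The labels do not say whether libraries of a group came from separate mice, so the p-values below measure the spread between libraries, which may be technical.

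Selenoproteins contain selenocysteine, an amino acid with selenium in the place of the sulfur of cysteine. It is encoded by UGA, which is otherwise a stop codon, and is inserted with the help of a stem-loop in the 3′ untranslated region of the transcript and of proteins that bind it. Selenocysteine usually sits in the active site of an enzyme that handles peroxides, disulfides or oxidised methionine. The thyroid holds much selenium for its mass and makes hydrogen peroxide to iodinate thyroglobulin, and its follicular cells fold and secrete thyroglobulin through the endoplasmic reticulum (ER), where many of these proteins reside.

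The UGA codons are the feature that defines these genes, and their place in the reading frame differs between them. The sequences, written as DNA with the recoded stop codon TGA in capitals, were read from the GENCODE transcripts of GRCm38 (mm10), and each is the sense strand around 1 codon.
Selenop, codon 59 of 380: cttcaagccagcTGAtacttgtgtcttctg
Selenop, codon 377 of 380: aggaagtgaaaaTGAcattcaaactaa
Selenow, codon 13 of 88: tattgtggagctTGAggctataagcccaag
Selenom, codon 48 of 145: acctgtggaggaTGAcagttgaatcgccta
Selenot, codon 49 of 195: atttgtgtatccTGAgggtaccggcgggtg
Selenof, codon 93 of 162: gaagtctgcggaTGAaaattggggaggttc
Selenos, codon 189 of 190: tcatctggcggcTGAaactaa
Selenok, codon 92 of 94: atggctggtggaTGAggaaggtaa
Selenon, codon 428 of 557: gaccagtcctgcTGAggttccgggcggact
Msrb1, codon 95 of 116: caatcaagattcTGAatatttagcagctca
Sephs2, codon 63 of 452: ggcatgaagggcTGAggctgcaaggtcccc
Selenop carries 10 such codons, of which 1 is in exon 2 and the rest are in exon 5, whereas each of the other genes carries 1. In Selenos and Selenok the codon lies next to the end of the frame, with 1 and 2 codons after it before the true stop (taa). In Selenow, Selenom, Selenot and Selenof a cysteine codon (tgt or tgc) stands a few bases before the capitals, the arrangement of a thioredoxin-like redox site. In Selenon a cysteine codon stands directly before the capitals, and in Selenop codon 59 and Sephs2 a cysteine codon stands a few bases after them.

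Library totals were 32244842 to 51886245 counts, and the 10 genes had between 347 counts (the lowest value, of Selenom) and 13527 counts (the highest, of Selenop) in a library. Transcripts of neighbouring tissue varied. The summed level of 15 skeletal muscle markers at 4 weeks was 9.51 to 607 CPM (counts scaled to the size of the library) in TSH-MMI, 6.98 to 1716 CPM in TSH, 71.6 to 387 CPM in Empty-MMI and 4457 to 13089 CPM in Empty libraries. Thymocyte markers reached 208 CPM in Empty replicate 3 and 26.3 CPM in TSH-MMI replicate 2 of 1 week. At 4 weeks 4 parathyroid markers, of which Rxfp2 was at 0 throughout, summed to 1290 to 2354 CPM in TSH-MMI and 26.2 to 2849 CPM in TSH libraries. They summed to 2510 to 5639 CPM in Empty-MMI and 102 to 6471 CPM in Empty libraries. The part of this tissue in the levels of the 10 genes was not tested. Follicular cell markers, thyroglobulin among them, summed to at least 169286 CPM in every library. All CPM values are normalised by the trimmed mean of M values within a week.

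Per length of transcript, the genes differed widely in level, and their order changed with group. In TPM, a unit scaled to transcript length and library size that the authors deposited in a separate table for each week, Selenow and Selenof had the highest levels in every group and Sephs2 the lowest. At 1 week Selenof led in TSH-MMI libraries, at 378 ± 28.9 TPM, and in TSH libraries, at 352 ± 21.7 TPM, whereas Selenow led in Empty libraries, at 393 ± 11.1 TPM (SD, n = 3 each). The ranges of Selenof and Selenow overlapped in TSH libraries of 1 week and in TSH-MMI libraries of 4 weeks, so their order there was within the spread. Selenop and Selenok came next in all 7 groups, and the range of Selenop reached that of Selenow in TSH-MMI libraries of 1 week. At 4 weeks Selenok stood above Selenop in Empty-MMI libraries (269 ± 26.0 and 193 ± 24.7 TPM) and in Empty libraries (240 ± 8.52 and 194 ± 11.5 TPM), with no overlap of their ranges, while in TSH-MMI and TSH libraries Selenop had the higher mean and the ranges overlapped. Msrb1, Selenos and Selenot formed a middle group, at group means of 70.2 to 142 TPM. Selenon followed at 44.0 to 62.9 TPM and overlapped Selenom in Empty libraries of 4 weeks, with Selenom at 34.6 to 38.9 TPM and Sephs2 at 18.5 to 23.6 TPM. Across the 21 libraries Selenof varied least, by 1.34-fold between its highest and lowest TPM, and Selenok most, by 2.55-fold. Selenok was lowest in a TSH library of 1 week and highest in an Empty-MMI library of 4 weeks, and time and table cannot be told apart. In CPM within a week Selenok varied by 1.40-fold at 1 week and 1.81-fold at 4 weeks. The widest ranges there were those of Msrb1 at 1 week (1.67-fold) and Selenow at 4 weeks (2.26-fold).

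**Figure D1:**
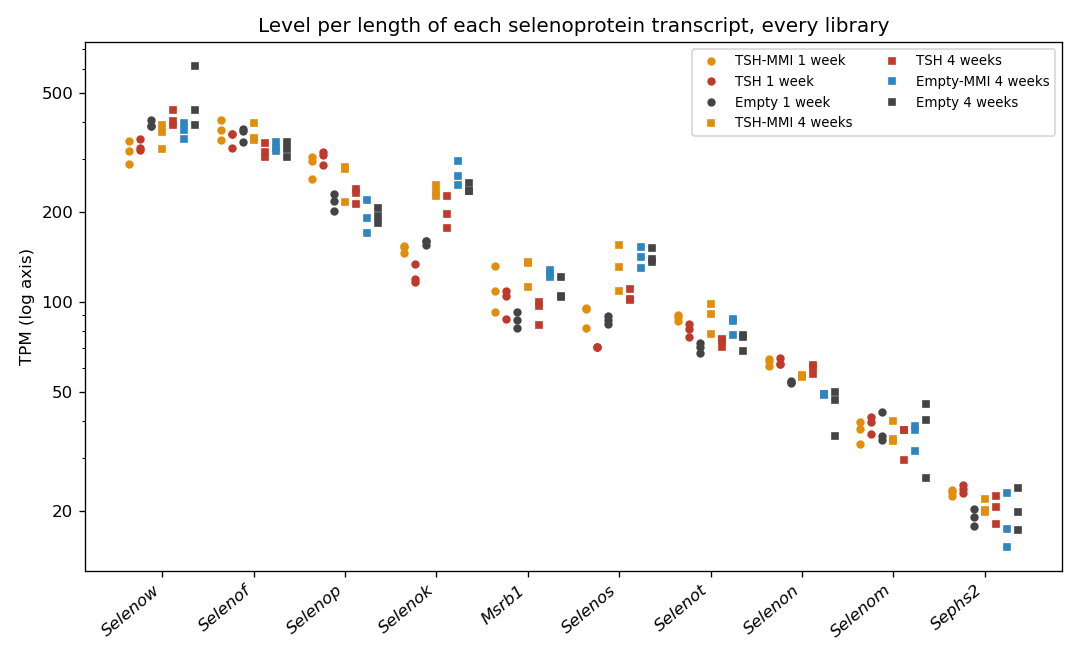
TPM of each of the 10 transcripts on a log axis, ordered by median over all libraries; each point is 1 library, circles are 1 week and squares 4 weeks, coloured by group. Selenow and Selenof lie highest, Sephs2 lies at 15.1 to 24.3 TPM, and Selenok and Selenos of 4 weeks lie above those of 1 week. Each week has its own table, so time and table cannot be told apart.

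At 1 week, 7 of the 10 genes differed between TSH and Empty libraries: Selenop, Selenon, Selenot and Sephs2 were higher, and Selenok, Selenos and Selenow were lower. Of all genes tested, 24.1% passed the same threshold, an adjusted p under 0.05 in edgeR's quasi-likelihood test with Benjamini-Hochberg adjustment over all genes, 14.8% higher and 9.34% lower. The libraries of both groups did not overlap for 7 of the 10, against 41.1% of all genes (22.1% higher and 19% lower). The median log2 fold change was 0.13 over the 10 genes and -0.00 over all genes. In TSH-MMI against Empty libraries 5 of the 10 passed, against 21.6% of all genes (13.6% higher and 7.97% lower): Selenop, Selenot, Selenon and Sephs2 were higher and Selenow was lower, with a median of 0.12 over the 10 genes and -0.01 over all genes. The libraries did not overlap for 5 of the 10, against 38.8% of all genes (21.4% higher and 17.5% lower). Comparisons of TSH and of TSH-MMI within a week share the Empty libraries. At 4 weeks, 2 of the 10 passed in TSH against Empty libraries (Selenon higher and Selenos lower), against 14.1% of all genes (8.52% higher and 5.61% lower), with a median of -0.16 over the 10 genes and -0.03 over all genes. Libraries did not overlap for 5 of the 10 (Selenon higher; Selenos, Selenok, Selenof and Msrb1 lower), against 35.2% of all genes (17.9% higher and 17.3% lower). Only Selenow, which was lower, passed in TSH-MMI against Empty libraries of 4 weeks, against 14.7% of all genes (8.77% higher and 5.97% lower), with a median of -0.04 over the 10 genes and -0.03 over all. There 3 of the 10 did not overlap (Selenon higher; Selenow and Selenok lower), against 30.9% of all genes (15.7% higher and 15.2% lower). In bulk tissue, fewer cells of a type and less RNA per cell cannot be told apart.

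**Figure D2:**
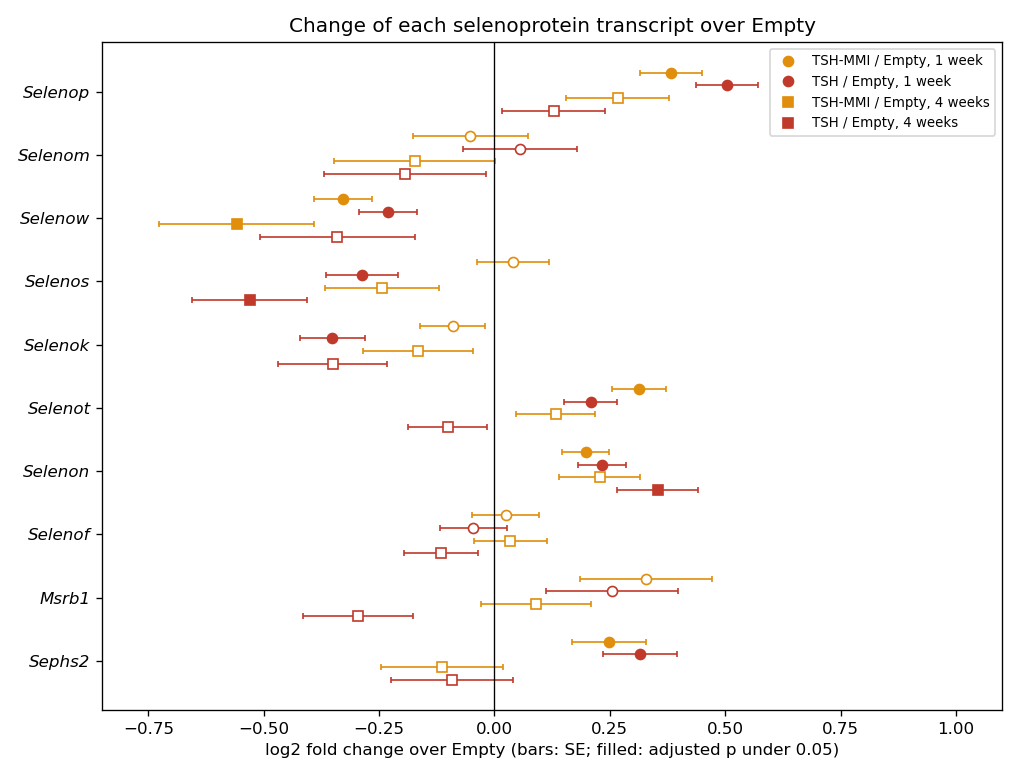
Log2 fold change of each transcript over Empty at both times, with its SE; filled symbols had an adjusted p under 0.05, circles are 1 week and squares 4 weeks, orange is TSH-MMI and red is TSH. Selenop at 1 week lies farthest to the right (0.50 in TSH), and Selenow of TSH-MMI and Selenos of TSH at 4 weeks lie farthest to the left (-0.56 and -0.53).

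Selenop is the plasma selenium carrier, made mostly by the liver and also by other tissues, and the only one of the genes with many UGA codons, as the sequences above show. The gene lies at chr15:3268547-3280508 on the + strand. At 1 week it had 226, 255 and 248 CPM in TSH-MMI libraries and 270.4, 249.8 and 273 CPM in TSH libraries, against 180.5, 193 and 185 CPM in Empty libraries. Every library with the hormone plasmids was above every Empty library. Over Empty, TSH differed by 0.50 on the log2 scale (SE 0.07), or 1.42-fold (edgeR adjusted p = 0.000316). The TSH-MMI over Empty difference was 0.38 (SE 0.07), or 1.30-fold (edgeR adjusted p = 0.00234). Both calls held under all 16 alternatives run for each. TSH-MMI and TSH libraries overlapped at 1 week.

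At 4 weeks Selenop had 230.4, 185 and 226 CPM in TSH-MMI libraries and 182, 206 and 195 CPM in TSH libraries, against 156, 182 and 169 CPM in Empty-MMI libraries and 202, 166 and 165 CPM in Empty libraries. The TSH-MMI libraries all lay above the Empty-MMI libraries, but overlapped the Empty libraries. The TSH-MMI over Empty-MMI difference was 0.34 (SE 0.11) and did not pass in edgeR (adjusted p = 0.116), whereas DESeq2 gave an adjusted p of 0.0358. Between TSH and Empty the difference was 0.13 at 4 weeks (SE 0.11, edgeR adjusted p = 0.481). Over Empty, TSH-MMI differed by 0.27 (SE 0.11, edgeR adjusted p = 0.129), and by 0.37 without Empty replicate 1 (adjusted p = 0.0452). The effect of TSH at 4 weeks minus that at 1 week was -0.37 (SE 0.13, edgeR adjusted p = 0.160). Its exons share 439 bases with those of Ccdc152 on the opposite strand, a gene with at most 6 counts in a library, and the sources used here do not say whether counting used strand.

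The genes whose levels followed Selenop most closely over the 21 libraries were Fndc1 (Pearson's r = 0.92), Aspn (r = 0.91) and Col5a2 (r = 0.90), among 9029 candidates with a mean of at least 10 CPM and with levels centred on each week. Aspn and Col5a2 encode proteins of the extracellular matrix. The summed level of 10 fibroblast markers at 1 week was 1791 to 2099 CPM in TSH-MMI libraries and 2315 to 2620 CPM in TSH libraries, against 835 to 1035 CPM in Empty libraries. Of these markers 4 of 10 rose and 2 fell in TSH-MMI libraries, and 4 of 10 rose in TSH libraries (Col3a1, Col1a2 and Col1a1 among them). Macrophage markers, which rose in 10 of 10 in both groups, summed to 600.1 to 697 CPM in TSH-MMI and 692 to 756 CPM in TSH libraries, against 302 to 358 CPM in Empty libraries. Endothelial markers, 9 of 10 higher in TSH-MMI and 10 of 10 higher in TSH libraries, summed to 1674 to 1892 CPM and 1881 to 2041 CPM in these groups, against 1118 to 1411 CPM in Empty libraries. C cell markers, of which 2 rose and 2 fell in TSH-MMI libraries and 2 rose and 6 fell in TSH libraries among 9 tested, summed to 2009.9 to 3404 CPM in TSH-MMI and 1345 to 4534 CPM in TSH libraries, against 4825 to 10594 CPM in Empty libraries. At 4 weeks macrophage markers, of which 9 of 10 rose in both groups, summed to 502 to 640.1 CPM in TSH-MMI and 550.2 to 628 CPM in TSH libraries, against 296 to 324 CPM in Empty-MMI and 261 to 333 CPM in Empty libraries. Endothelial markers, 10 of 10 higher in both groups at 4 weeks, summed to 1502 to 1544 CPM in TSH-MMI and 1488 to 1539.5 CPM in TSH libraries, against 1048 to 1222 CPM in Empty-MMI and 944 to 996 CPM in Empty libraries. Of 9 C cell markers tested 1 rose and 6 fell in each of TSH-MMI and TSH libraries at 4 weeks, and the 10 markers summed to 3712 to 5225 CPM in TSH-MMI and 837 to 5646 CPM in TSH libraries, against 7120.2 to 13523 CPM in Empty-MMI and 1448 to 13431 CPM in Empty libraries. Of 10 fibroblast markers 4 rose in each, 0 fell in TSH-MMI and 1 fell in TSH libraries, and they summed to 1082 to 1354 CPM in TSH-MMI and 893 to 1104 CPM in TSH libraries, against 824 to 990.0 CPM in Empty-MMI and 795 to 903 CPM in Empty libraries. Of all genes, 14.8% rose and 9.34% fell in TSH libraries of 1 week, and 13.6% rose and 7.97% fell in TSH-MMI libraries. At 4 weeks 8.52% rose and 5.61% fell in TSH, and 8.77% rose and 5.97% fell in TSH-MMI libraries. No marker of the fibroblast, macrophage, endothelial and C cell lists was at 0 in all libraries of a group. The part of these cell types in the levels of Selenop and the other 9 genes was not tested.

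**Figure D3:**
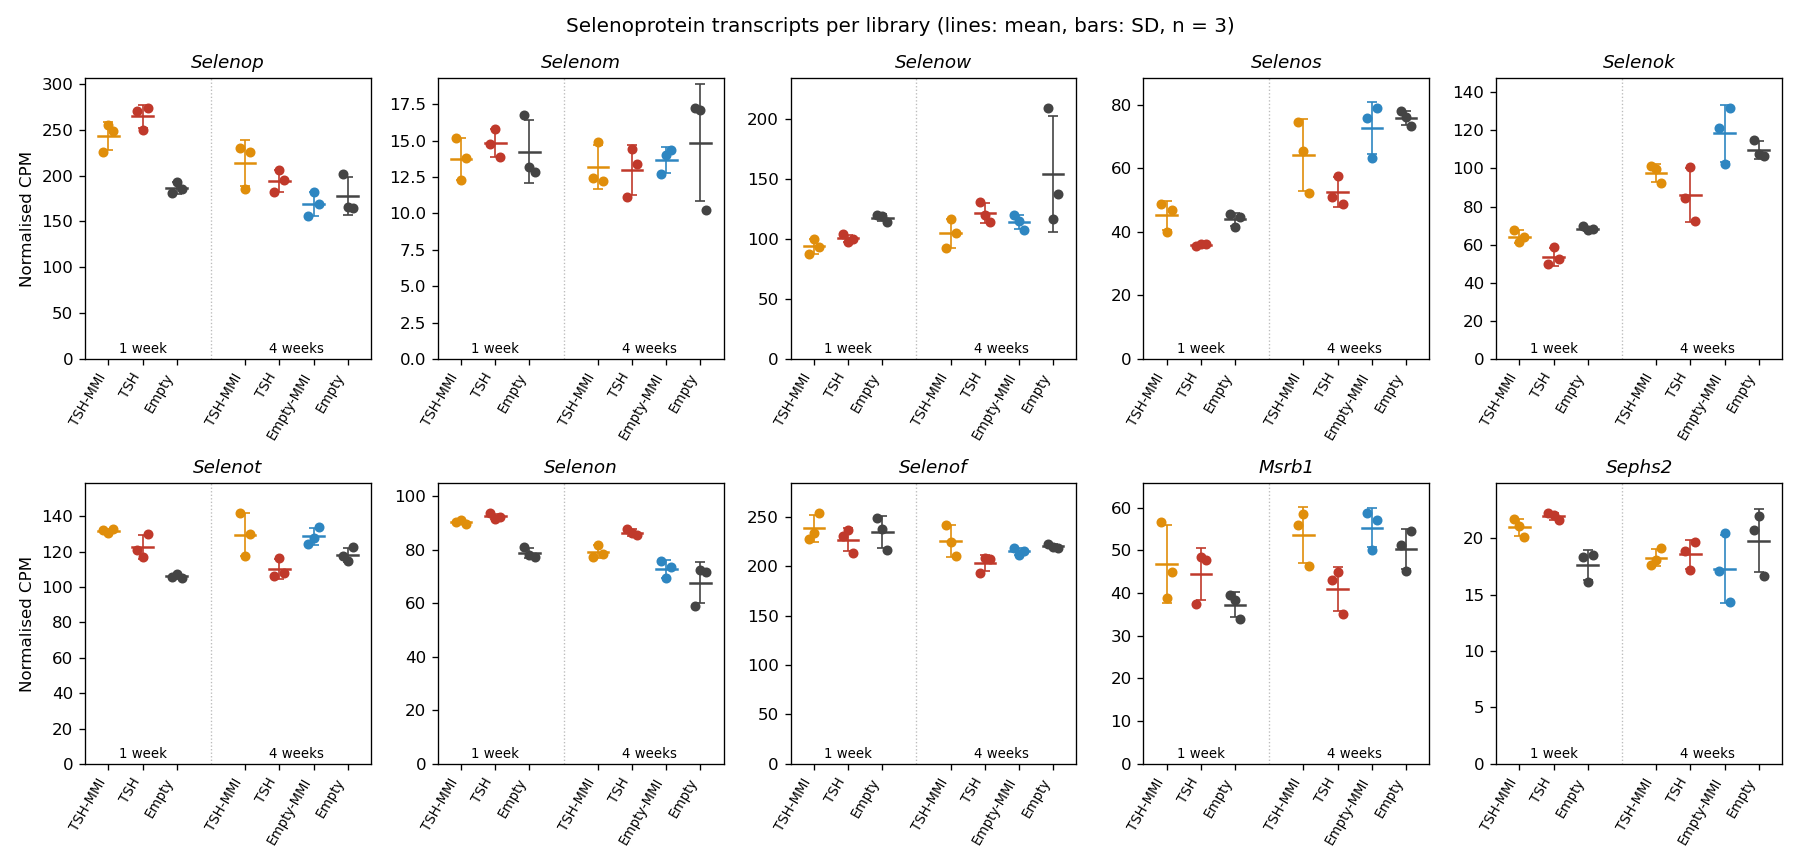
Normalised CPM of each of the 10 transcripts in every library, by group, at 1 week (left of the dotted line) and 4 weeks; horizontal lines are means and bars are SD over 3 libraries, and each axis starts at 0. Selenop of TSH-MMI and TSH lies above Empty at 1 week, Selenos and Selenok of TSH lie below Empty at both times, and 1 Empty library of 4 weeks stands apart in Selenow at 209 CPM.

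Selenos and Selenok encode small ER membrane proteins that bind the Derlins. Selenos (VIMP) recruits the ATPase p97 (Vcp) to ER-associated degradation, the removal of misfolded proteins from the ER, and Selenok also takes part in palmitoylation of the inositol trisphosphate receptor. Selenos lies at chr7:66079649-66089405 and Selenok at chr14:29968308-29975662, both on the + strand, and they share the arrangement of a UGA codon at the end of the frame. For both, every TSH library lay below every Empty library at both times, and the mean of TSH-MMI libraries lay between those groups or at the level of Empty.

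At 1 week Selenos had 48.6, 40.01 and 46.9 CPM in TSH-MMI libraries and 35.5, 36.2 and 36.3 CPM in TSH libraries, against 45.6, 41.7 and 44.5 CPM in Empty libraries. The 3 TSH libraries were the lowest of the 9, and TSH-MMI and Empty libraries overlapped. The TSH over Empty difference was -0.29 (SE 0.08), or 0.820-fold (edgeR adjusted p = 0.0206). Between TSH-MMI and Empty it was 0.04 (SE 0.08, edgeR adjusted p = 0.762). At 4 weeks Selenos had 74.6, 65.6 and 52.1 CPM in TSH-MMI libraries and 51.1, 57.7 and 48.7 CPM in TSH libraries, against 75.8, 63.3 and 78.9 CPM in Empty-MMI libraries and 78.0, 76.1 and 73.5 CPM in Empty libraries. TSH libraries again lay below every Empty library, while TSH-MMI libraries spread over the range of both. Over Empty, TSH differed by -0.53 (SE 0.12), or 0.692-fold (edgeR adjusted p = 0.0119), and TSH-MMI by -0.24 (SE 0.12, edgeR adjusted p = 0.218). The 1 week call of TSH did not pass with limma on log2(FPKM + 1) (adjusted p = 0.0530), or in edgeR without Empty replicate 1 (adjusted p = 0.0654), TSH replicate 1 (0.0587) or TSH replicate 3 (0.0575), and the 4 week call did not pass without TSH replicate 3 (0.0601).

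Selenok had 67.6, 61.2 and 63.9 CPM in TSH-MMI libraries of 1 week and 49.7, 58.6 and 52.4 CPM in TSH libraries, against 69.6, 67.5 and 68.0 CPM in Empty libraries. The TSH libraries were again below all others. Between TSH and Empty the difference was -0.35 (SE 0.07), or 0.784-fold (edgeR adjusted p = 0.00409), a call that held under all 16 alternatives. The TSH-MMI over Empty difference was -0.09 (SE 0.07, edgeR adjusted p = 0.401). At 4 weeks the values were 101, 99.7 and 92.3 CPM in TSH-MMI libraries and 84.5, 101 and 72.5 CPM in TSH libraries, against 121, 102 and 132 CPM in Empty-MMI libraries and 115, 107 and 106 CPM in Empty libraries. All 6 libraries with the hormone plasmids lay below all 6 without them. The TSH over Empty difference was the same size as at 1 week, -0.35 (SE 0.12), but did not pass in edgeR (adjusted p = 0.0648). DESeq2 gave 0.0371, and leaving out TSH replicate 2 gave an edgeR adjusted p of 0.0239. The TSH-MMI over Empty-MMI difference was -0.28 (SE 0.12, edgeR adjusted p = 0.240).

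Selenos and Selenok were also the members that differed most between TSH-MMI and TSH libraries of 1 week, by 0.33 (SE 0.08) and 0.26 (SE 0.07), with every TSH-MMI library above every TSH library. Of the 10 genes 4 did not overlap there (Selenos, Selenok and Selenot higher, Selenon lower), against 16.5% of all genes (8.18% higher and 8.32% lower). Neither passed in edgeR (adjusted p = 0.261 and 0.334, unadjusted p = 0.00143 and 0.00325), where 0.0177% of all genes passed, all of them lower. DESeq2 gave Selenos an adjusted p of 0.0314. Over the 21 libraries, centred on each week, Selenos and Selenok had the highest correlation of any pair among the 10 genes (r = 0.87), followed by Selenot and Msrb1 (r = 0.64). These libraries share depth and scaling, and the correlation includes the differences between groups. The genes most like Selenos were Srp9 (r = 0.92), Nans (r = 0.90) and Spcs1 (r = 0.89), and those most like Selenok were Ufc1 (r = 0.90), Ostc (r = 0.90) and Saraf (r = 0.89). Srp9 is part of the signal recognition particle, Spcs1 of the signal peptidase and Ostc of the oligosaccharyltransferase, all used by proteins that enter the ER.

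**Figure D4:**
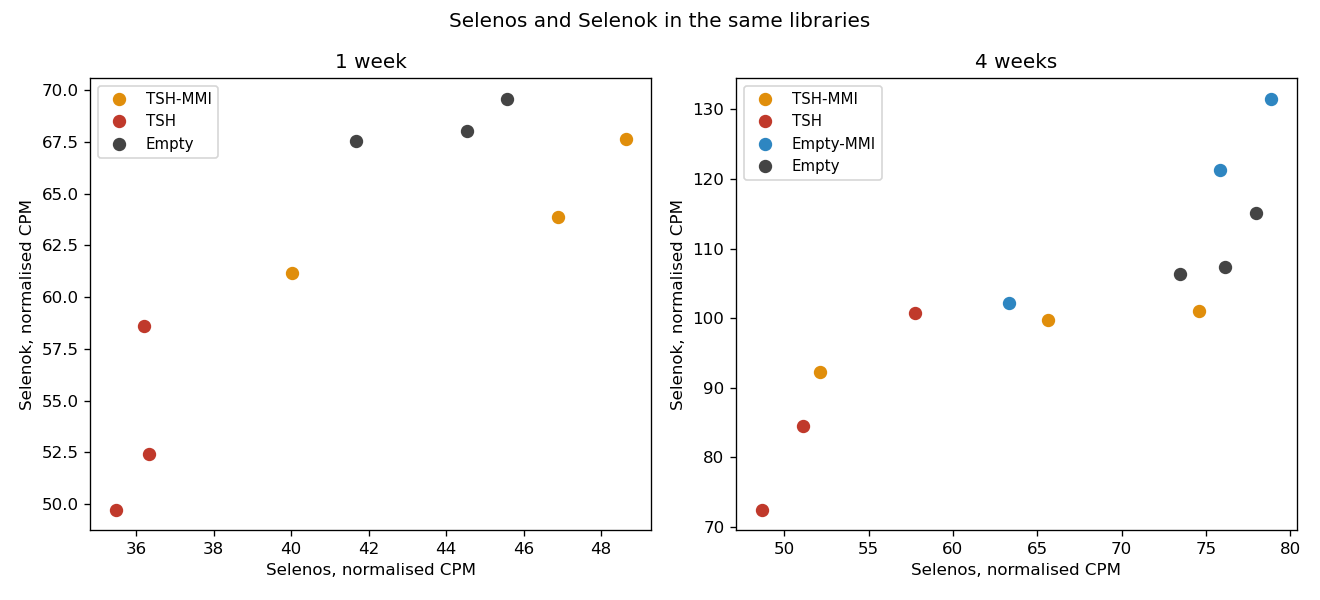
Selenok against Selenos in normalised CPM at 1 week (left) and 4 weeks (right); each point is 1 library, coloured by group, and the axes do not start at 0. At 1 week the 3 TSH libraries lie at the lower left, at 35.5 to 36.3 CPM of Selenos and 49.7 to 58.6 CPM of Selenok.

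Of 14 genes of ER-associated degradation, 1 rose and 1 fell in TSH libraries of 1 week: Nploc4, a cofactor of p97, rose by 0.28 (SE 0.07, edgeR adjusted p = 0.00901), and Derl3 fell by 0.77 on the log2 scale (SE 0.18, edgeR adjusted p = 0.0161). At 4 weeks 0 rose and 2 fell in TSH libraries, with log2 fold changes of -0.49 for Derl3 (edgeR adjusted p = 0.0197) and -0.27 for Derl1 (edgeR adjusted p = 0.0376). Derl3 was lower in TSH-MMI libraries too, at -0.72 at 1 week (edgeR adjusted p = 0.0246) and -0.78 at 4 weeks (edgeR adjusted p = 0.00122). The list's median log2 fold change in TSH libraries was 0.06 at 1 week and -0.12 at 4 weeks. Of all genes, 14.8% rose and 9.34% fell in TSH libraries of 1 week, and 8.52% rose and 5.61% fell at 4 weeks. Of 22 genes of ER folding and the unfolded protein response, 2 rose (Ero1l and Uggt1) and 1 fell (Sdf2l1) in TSH libraries of 1 week, and 1 rose (Ero1l) and 3 fell (Sdf2l1, Uggt2 and Xbp1) at 4 weeks. Ero1l, an oxidase that makes disulfide bonds in the ER, was higher by 0.58 at 1 week (SE 0.06, edgeR adjusted p = 5.18e-05) and by 0.46 at 4 weeks (SE 0.11, edgeR adjusted p = 0.0121). Xbp1, a transcription factor of the unfolded protein response, was lower at 4 weeks, at -0.38 (edgeR adjusted p = 0.0448) and was -0.18 at 1 week (edgeR adjusted p = 0.437).

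RefSeq promoters of GRCm38.p6, 250 bases before to 50 bases after the start, were found for all 10 genes and searched on both strands. No member held the ER stress elements ERSE (0.119% of 32851 promoters) or ERSE-II (0.0365%), or the cyclic AMP element TGACGTCA (1.79%). The core of the antioxidant response element, TGACNNNGC, which 12.4% of promoters hold, was found in 1 member, Selenok, at 44 bases before the RefSeq start, which lies inside the GENCODE gene as given above. These are matches of letters in a short window.

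Of the 4 genes with a cysteine codon a few bases before the UGA, Selenow fell and Selenot rose at 1 week, and Selenom and Selenof passed in no comparison. Selenow is a small cytosolic protein that is abundant in muscle and brain, encoded at chr7:15917208-15922402 on the - strand. At 1 week it had 87.8, 100.1 and 93.0 CPM in TSH-MMI libraries and 104, 97.2 and 99.9 CPM in TSH libraries, against 119.8, 119 and 114 CPM in Empty libraries. All libraries with the hormone plasmids were below all Empty libraries. Between TSH-MMI and Empty the difference was -0.33 (SE 0.06), or 0.796-fold (edgeR adjusted p = 0.00396), and held under all 16 alternatives. That of TSH was -0.23 (SE 0.06), or 0.853-fold (edgeR adjusted p = 0.0203). The TSH call ended with limma on log2(FPKM + 1) (adjusted p = 0.0801) and without Empty replicate 1 (0.0618), Empty replicate 2 (0.0549), TSH replicate 2 (0.0718) or TSH replicate 3 (0.0682).

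At 4 weeks Selenow had 92.4, 116 and 105 CPM in TSH-MMI libraries, 131, 120.1 and 114 CPM in TSH libraries and 119, 114 and 107 CPM in Empty-MMI libraries, against 209, 116 and 137 CPM in Empty libraries. Empty replicate 1 stood far above the others. It also had the highest muscle marker sum, 13089 CPM, against 4457 and 10017 CPM in the other Empty libraries and at most 1716 CPM in any library of the other groups of that week. TSH-MMI libraries lay below Empty libraries, the highest of the one only just below the lowest of the other, and the difference was -0.56 (SE 0.17), or 0.679-fold (edgeR adjusted p = 0.0407). Without Empty replicate 1 it was -0.28 (adjusted p = 0.134), without TSH-MMI replicate 1, 2 or 3 it did not pass (adjusted p = 0.166, 0.0529 and 0.0911), and with the muscle marker level as a covariate it was -0.51 (adjusted p = 0.345). With this covariate 389 of all genes passed in the comparison, against 2558 without it. Muscle markers were higher in every Empty library than in all others of that week, so covariate and group cannot be fully told apart. The other differences over Empty were -0.34 in TSH (SE 0.17, edgeR adjusted p = 0.197) and -0.44 in Empty-MMI libraries (SE 0.17, edgeR adjusted p = 0.232), and without Empty replicate 2 that of TSH was -0.51 (adjusted p = 0.0493). Muscle markers at 1 week were 99.1 to 941 CPM in TSH-MMI and 231 to 5240 CPM in TSH libraries, against 26.1 to 1999 CPM in Empty libraries. With the muscle marker level as a covariate, Selenow of TSH-MMI and of TSH still passed against Empty at 1 week. Selenow was followed most closely by Pink1 (r = 0.91), Use1 (r = 0.89) and Eif3h (r = 0.88).

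**Figure D5:**
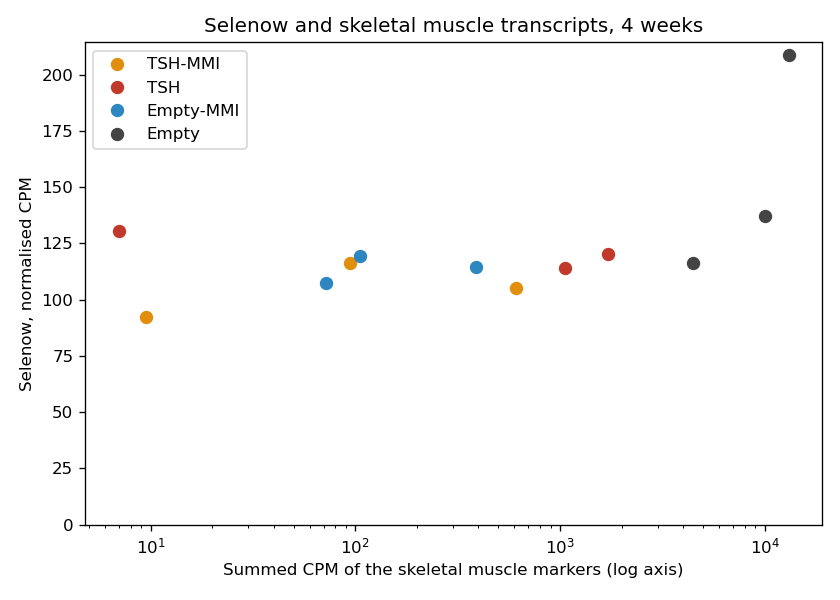
Selenow in normalised CPM against the summed CPM of the skeletal muscle markers on a log axis, in the 12 libraries of 4 weeks; each point is 1 library. The 3 Empty libraries lie farthest to the right, and 1 of them, at 209 CPM of Selenow, lies above all others.

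Selenot, a thioredoxin-like protein of the ER membrane, is encoded at chr3:58576636-58593133 on the + strand. It had 132, 131 and 133 CPM in TSH-MMI libraries of 1 week and 121, 117 and 130.0 CPM in TSH libraries, against 105, 108 and 105 CPM in Empty libraries, and the 3 groups did not overlap. The TSH-MMI over Empty difference was 0.31 (SE 0.06), or 1.24-fold (edgeR adjusted p = 0.00315), called under all 16 alternatives. That of TSH was 0.21 (SE 0.06), or 1.16-fold (edgeR adjusted p = 0.0216), and ended without Empty replicate 1 (adjusted p = 0.0724), Empty replicate 3 (0.0537) or TSH replicate 3 (0.0965), without both libraries with thymocyte transcripts (0.0631) and with only the compared groups in the fit (0.0517). At 4 weeks Selenot had 142, 117 and 129.9 CPM in TSH-MMI libraries and 106, 116 and 108 CPM in TSH libraries, against 124, 128 and 134 CPM in Empty-MMI libraries and 118, 115 and 123 CPM in Empty libraries. No difference over Empty passed, and TSH-MMI lay above TSH in every library (0.23, SE 0.09, edgeR adjusted p = 0.525). The effect of TSH at 4 weeks minus that at 1 week was -0.31 (SE 0.10), which did not pass in edgeR (adjusted p = 0.126), while DESeq2 gave 0.0468 and limma on log2(FPKM + 1) gave 0.0417. The limma scale moved the median of all genes in this contrast by -0.08, in the direction of the Selenot difference. Selenot was followed most closely by Otud6b (r = 0.92), Ufm1 (r = 0.90) and Rab18 (r = 0.88). Its pseudogene Selenot-ps had 5 to 14 counts in a library.

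Selenof and Selenom are soluble proteins of the ER lumen, and Selenof binds UGGT, the enzyme that checks the folding of glycoproteins. Selenof is encoded at chr3:144570304-144597680 and Selenom at chr11:3514684-3517351, both on the + strand. Neither passed in any comparison. At 1 week Selenof had 238 ± 13.5 CPM in TSH-MMI and 227 ± 11.7 CPM in TSH libraries, against 234 ± 16.2 CPM in Empty libraries (SD, n = 3 each). At 4 weeks its values were 242, 224 and 210.2 CPM in TSH-MMI libraries and 193, 209 and 207 CPM in TSH libraries, against 218, 211 and 215 CPM in Empty-MMI libraries and 223, 219 and 219 CPM in Empty libraries. TSH libraries were below all Empty libraries by a small step (-0.12, SE 0.08, edgeR adjusted p = 0.358). Selenom had 13.7 ± 1.45 CPM in TSH-MMI and 14.8 ± 0.954 CPM in TSH libraries of 1 week, against 14.2 ± 2.16 CPM in Empty libraries. At 4 weeks it had 13.2 ± 1.49 CPM in TSH-MMI, 13.0 ± 1.70 CPM in TSH and 13.7 ± 0.878 CPM in Empty-MMI libraries, against 14.8 ± 4.01 CPM in Empty libraries (SD, n = 3 each). Its groups overlapped in every comparison. The genes most like Selenof were Taz (r = 0.78), Prdx5 (r = 0.76) and Cetn2 (r = 0.74), and those most like Selenom were Fcgrt (r = 0.83), Rcn3 (r = 0.81) and Orai1 (r = 0.79).

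Selenon is an ER membrane protein that takes part in the refilling of ER calcium stores, and human mutations in it cause a congenital myopathy. It is encoded at chr4:134537892-134552166 on the - strand. At 1 week it had 90.3, 91.0 and 89.7 CPM in TSH-MMI libraries and 93.6, 91.7 and 92.3 CPM in TSH libraries, against 80.9, 77.9 and 77.3 CPM in Empty libraries. The spread within each group was small and no group overlapped another. The TSH over Empty difference was 0.23 (SE 0.05), or 1.18-fold (edgeR adjusted p = 0.00667), called under all 16 alternatives, and that of TSH-MMI was 0.20 (SE 0.05), or 1.15-fold (edgeR adjusted p = 0.0179). The TSH-MMI call ended without both libraries with thymocyte transcripts (adjusted p = 0.0986), without Empty replicate 2 (0.0522) or 3 (0.0544), and without TSH-MMI replicate 2 (0.0587) or 3 (0.0613).

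At 4 weeks Selenon had 77.4, 81.9 and 78.5 CPM in TSH-MMI libraries and 87.8, 86.2 and 85.4 CPM in TSH libraries, against 75.9, 69.4 and 73.6 CPM in Empty-MMI libraries and 58.8, 72.5 and 71.8 CPM in Empty libraries. Each group with the hormone plasmids lay above both groups without them, and TSH lay above TSH-MMI in every library, as at 1 week, a direction that turned with limma on log2(FPKM + 0.1) (0.03 at 1 week and 0.04 at 4 weeks), a scale that moved the median of all genes in this comparison by 0.06 and 0.15. Over Empty, TSH differed by 0.35 (SE 0.09), or 1.28-fold (edgeR adjusted p = 0.0167). It did not pass without Empty replicate 1 (adjusted p = 0.0526), which was the lowest in Selenon and the highest in muscle markers, without TSH replicate 1 (0.0530), with the muscle marker level as a covariate (0.113), with limma on log2(FPKM + 1) (0.0930) or with only the compared groups in the fit (0.0551). With the muscle covariate 998 of all genes passed in that comparison, against 2452 without it. Between TSH-MMI and Empty the difference was 0.23 (SE 0.09, edgeR adjusted p = 0.101), and the TSH-MMI over TSH difference was -0.13 (SE 0.09, edgeR adjusted p = 0.738). The genes most like Selenon were Bdkrb2 (r = 0.93), Pcdh1 (r = 0.93) and Atp2b4 (r = 0.92), the last of which encodes a calcium pump of the plasma membrane. Over the 21 libraries Selenon ran opposite to Selenok (r = -0.64), Selenow (r = -0.63) and Selenos (r = -0.63). Levels were centred on each week only, so these values include the differences between groups given above and add no separate evidence.

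Msrb1 reduces oxidised methionine and reverses the oxidation of actin by MICAL enzymes. It is encoded at chr17:24736642-24742778 on the + strand. At 1 week it had 56.7, 38.8 and 45.0 CPM in TSH-MMI libraries and 37.4, 48.4 and 47.7 CPM in TSH libraries, against 39.6, 38.4 and 33.9 CPM in Empty libraries. The groups overlapped, and neither the TSH-MMI difference (0.33, SE 0.14, edgeR adjusted p = 0.131) nor the TSH difference over Empty (0.25, SE 0.14, edgeR adjusted p = 0.227) passed. Without TSH-MMI replicate 2 the TSH-MMI difference was 0.44, with an adjusted p of 0.0477, and limma on log2(FPKM + 1) gave 0.0419. At 4 weeks the values were 55.9, 58.6 and 46.2 CPM in TSH-MMI libraries and 43.1, 44.8 and 35.0 CPM in TSH libraries, against 58.6, 50.1 and 57.2 CPM in Empty-MMI libraries and 51.2, 45.1 and 54.5 CPM in Empty libraries. The TSH libraries were the lowest of all. Between TSH and Empty the difference was -0.30 (SE 0.12, edgeR adjusted p = 0.114), and the TSH-MMI over TSH difference was 0.39 (SE 0.12, edgeR adjusted p = 0.433). With limma on log2(FPKM + 1) the TSH over Empty difference passed (adjusted p = 0.0376). The effect of TSH at 4 weeks minus that at 1 week was -0.55 (SE 0.19, edgeR adjusted p = 0.164), and limma on log2(FPKM + 1) gave 0.0439. That scale moved the median of all genes by -0.08 in this last contrast. It moved it by -0.04 in TSH over Empty at 4 weeks and by 0.07 in TSH-MMI over Empty at 1 week. Each shift had the direction of the Msrb1 difference. Msrb1 was followed most closely by Timm17a (r = 0.91), P4hb (r = 0.87) and Mcfd2 (r = 0.87).

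Of 6 genes of methionine sulfoxide reductases and MICAL enzymes, 3 rose and 0 fell in TSH libraries of 1 week, with a median log2 fold change of 0.43, and 3 rose and 1 fell at 4 weeks, with a median of 0.55. Of all genes, 14.8% rose and 9.34% fell in TSH libraries of 1 week, and 8.52% rose and 5.61% fell at 4 weeks. Msrb3, a reductase that uses no selenium, was higher by 1.47 at 1 week (SE 0.15, edgeR adjusted p = 0.000159) and by 0.82 at 4 weeks (SE 0.13, edgeR adjusted p = 0.00127). Mical2, an actin-oxidising enzyme, was higher by 0.62 at 1 week (edgeR adjusted p = 0.00222) and by 0.82 at 4 weeks (edgeR adjusted p = 0.000945). Msrb2, the mitochondrial reductase, fell at 4 weeks by 0.45 on the log2 scale (SE 0.10, edgeR adjusted p = 0.00877).

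Sephs2 makes selenophosphate, the selenium donor of selenocysteine synthesis, and is itself a selenoprotein. It is encoded by a single exon at chr7:127271879-127274055 on the - strand, which shares 792 bases with Gm44729 on the opposite strand. At 1 week it had 21.7, 21.1 and 20.1 CPM in TSH-MMI libraries and 22.2, 22.1 and 21.6 CPM in TSH libraries, against 18.3, 16.1 and 18.5 CPM in Empty libraries. Both groups lay above Empty in every library. The TSH over Empty difference was 0.31 (SE 0.08), or 1.24-fold (edgeR adjusted p = 0.0140), and passed in 15 of 16 alternatives, the exception being without Empty replicate 2 (0.0530). That of TSH-MMI was 0.25 (SE 0.08), or 1.19-fold (edgeR adjusted p = 0.0457), and passed in 5 of 16 alternatives (adjusted p = 0.0116 to 0.144), not without Empty replicate 1 or 2 or any TSH-MMI replicate. At 4 weeks Sephs2 had 18.3 ± 0.775 CPM in TSH-MMI, 18.6 ± 1.27 CPM in TSH and 17.3 ± 3.04 CPM in Empty-MMI libraries, against 19.8 ± 2.77 CPM in Empty libraries (SD, n = 3 each), and no difference passed. The effect of TSH at 4 weeks minus that at 1 week was -0.41 (SE 0.16, edgeR adjusted p = 0.211). Sephs2 was followed most closely by Med20 (r = 0.76), Fbxw4 (r = 0.75) and Acads (r = 0.74).

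Of 10 genes that make and insert selenocysteine, 0 rose and 2 fell in TSH libraries of 1 week, with a median of -0.07, and the same count fell in TSH-MMI libraries, with a median of -0.03. Those that fell were Rpl30, a ribosomal protein that also binds the stem-loop of selenoprotein transcripts, and Eefsec, the elongation factor that delivers selenocysteine. Rpl30 was -0.43 in TSH-MMI (SE 0.07, edgeR adjusted p = 0.00138) and -0.57 in TSH libraries (SE 0.07, edgeR adjusted p = 0.000183) relative to Empty. Eefsec was -0.40 in TSH-MMI (edgeR adjusted p = 0.0225) and -0.33 in TSH libraries (edgeR adjusted p = 0.0479). At 4 weeks 1 of the 10, Rpl30, fell in TSH-MMI libraries (-0.48, edgeR adjusted p = 0.0410) and 0 in TSH libraries, where it was -0.45 (edgeR adjusted p = 0.0528). Of all genes, 9.34% fell in TSH and 7.97% in TSH-MMI libraries of 1 week, and 5.61% and 5.97% at 4 weeks.

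Of 8 genes of selenium uptake and handling, 2 rose and 2 fell in TSH libraries of 1 week, where 14.8% of all genes rose and 9.34% fell. Of the receptors known to take up Selenop, Lrp8 rose and Lrp2 (megalin) did not pass (0.32, SE 0.13, edgeR adjusted p = 0.0934, and in TSH-MMI -0.09, adjusted p = 0.676). Lrp8, the receptor that takes up Selenop in brain and testis, was higher on the log2 scale by 1.94 in TSH-MMI (SE 0.28, edgeR adjusted p = 0.000889) and by 2.13 in TSH libraries of 1 week (SE 0.28, edgeR adjusted p = 0.000352). At 4 weeks it was higher on the log2 scale by 1.98 in TSH-MMI (SE 0.20, edgeR adjusted p = 5.98e-05) and by 1.56 in TSH libraries (SE 0.20, edgeR adjusted p = 0.000273). Lrp8 was higher in Empty-MMI than in Empty libraries too, at a ratio of 2.15-fold (SE 0.20 on the log2 scale, edgeR adjusted p = 0.0203). The log2 differences of TSH-MMI and TSH at 4 weeks stand for larger ratios than this. Lrp8 was also higher in TSH-MMI than in Empty-MMI libraries, by 0.88 on the log2 scale (SE 0.19, edgeR adjusted p = 0.0198). Lrp1, a broad endocytic receptor, was higher in TSH libraries by 0.65 at 1 week (edgeR adjusted p = 0.00252) and 0.92 at 4 weeks (edgeR adjusted p = 0.00746), and was 0.24 and 0.55 in TSH-MMI libraries (edgeR adjusted p = 0.169 and 0.0752). Selenbp1, which binds selenium without selenocysteine, was -0.80 in TSH-MMI (edgeR adjusted p = 0.0169) and -0.75 in TSH libraries of 1 week (edgeR adjusted p = 0.0195). Of 6 tested selenoproteins that belong to neither the 10 genes nor the peroxidases and deiodinases, 1 rose and 3 fell in TSH libraries of 1 week. Txnrd1, the cytosolic thioredoxin reductase, was higher by 1.02 at 1 week (SE 0.15, edgeR adjusted p = 0.00118) and by 0.97 at 4 weeks (SE 0.12, edgeR adjusted p = 0.000199). Those that fell in TSH libraries of 1 week were Txnrd2 (-0.51, edgeR adjusted p = 0.0140), Selenoo (-0.30, edgeR adjusted p = 0.0149) and Txnrd3 (-0.45, edgeR adjusted p = 0.0187). In TSH-MMI libraries of 1 week 1 of the 6 rose and 1 fell, where 13.6% of all genes rose and 7.97% fell. At 4 weeks 1 rose and 0 fell in TSH libraries, where 8.52% of all genes rose and 5.61% fell.

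In edgeR no member passed in a comparison of mice with thiamazole against mice with the same plasmids and no drug, whereas DESeq2 called Selenos in TSH-MMI against TSH libraries of 1 week. In that comparison DESeq2 called 139 of all genes and edgeR 3. In Empty-MMI against Empty libraries 0 of 10 passed in edgeR, 1 had an unadjusted p under 0.05 (Selenow), as did 2614 of all 17355 genes, and DESeq2 and limma called 0, where 1.64% of all genes passed in edgeR (0.57% higher and 1.07% lower). Libraries did not overlap for 2 of the 10 (Selenot higher and Selenof lower), against 18.5% of all genes (8.92% higher and 9.56% lower). In TSH-MMI against TSH libraries 0 of 10 passed in edgeR at either time. At 1 week 2 had an unadjusted p under 0.05 (Selenos and Selenok), as did 1462 of all 16956 genes, DESeq2 called 1 and limma 0. At 4 weeks 3 had one (Selenos, Selenot and Msrb1), as did 1438 of all 17355 genes, and DESeq2 and limma called 0, where 0.0173% of all genes passed in edgeR (0.0115% higher and 0.00576% lower). There 4 of the 10 did not overlap (Selenot, Selenof and Msrb1 higher, Selenon lower), against 14.4% of all genes (6.58% higher and 7.87% lower). In TSH-MMI against Empty-MMI libraries 0 passed in edgeR, against 4.24% of all genes (3.03% higher and 1.21% lower), 2 had an unadjusted p under 0.05 (Selenop and Selenok), as did 3053 of all 17355 genes, DESeq2 called 1 and limma 0. Of all genes DESeq2 called 1223 there, limma on log2(FPKM + 1) 872 and edgeR 736. Libraries did not overlap for 3 of the 10 (Selenop and Selenon higher, Selenok lower), against 23.6% of all genes (12.2% higher and 11.4% lower). The interaction of TSH and MMI at 4 weeks passed for 0 of 10 in edgeR and for 0% of all genes, with 0 members and 1754 of all 17355 genes at an unadjusted p under 0.05 and 0 members called by DESeq2 or limma. Its largest value among the 10 was that of Selenos (0.35, SE 0.18, edgeR adjusted p = 0.523).

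The test of the TSH effect at 4 weeks minus that at 1 week passed for 0 of 10 in edgeR, where 1.35% of all genes passed (0.418% higher and 0.931% lower). An unadjusted p under 0.05 was found for 4 (Selenop, Selenot, Msrb1 and Sephs2), all with the lower effect at 4 weeks, and for 2824 of all 17715 genes, and DESeq2 called 1 and limma 2. Of all genes DESeq2 called 704 there, limma on log2(FPKM + 1) 752 and edgeR 239. For the TSH-MMI effect 0 passed in edgeR, DESeq2 or limma, where 0.0169% of all genes passed in edgeR (0.00564% higher and 0.0113% lower), and 1 had an unadjusted p under 0.05 (Sephs2), as did 1574 of all 17715 genes. The calls made at 1 week and not at 4 weeks are thus not shown to differ between the times.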

How the data were processed

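RNA-seq was read from 21 libraries in 7 groups of 3. The authors deposited 2 tables, one per week, with raw read counts, FPKM and TPM per gene. HISAT2 2.1.0, StringTie 2.1.3b, the mm10 build, Trimmomatic 0.38 and FastQC 0.11.7 are listed per the submitters' processing notes, with no order. Per the labels' protocols the libraries were made with a stranded mRNA kit. No source used here gives the annotation, the counting step or its use of strand.

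The deposited counts were tested in R 4.3.3 with edgeR 4.0.16 (TMM scaling, filterByExpr, robust quasi-likelihood F test, Benjamini-Hochberg adjustment over all genes tested, threshold 0.05). Each week was fitted apart, with 16956 genes in 9 libraries at 1 week and 17355 genes in 12 libraries at 4 weeks, and differences between weeks were fitted on 17715 genes in 21 libraries. Each SE was derived from this test, as the size of the log2 fold change divided by the square root of its F value. The deposited TPM gave levels between genes. The deposited FPKM were used in limma 3.58.1 with pseudocounts of 1 and 0.1, and DESeq2 1.42.0 was an alternative. The tests were tried on simulated data. Total counts were 32244842 to 51886245, and all libraries of a group differed by more than sampling noise.

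The rule allowed all 10 genes to be named in every comparison; where none passed, the text names those with an unadjusted p under 0.05, with groups that did not overlap or with the largest value. It also names up to 4 genes of smallest p of each other list described, and the 3 genes most alike in week-centred log2 CPM (prior count 2). All correlations between genes include the differences between groups. The 10 genes and the lists were chosen with earlier results of these data known. Same-numbered replicates did not deviate together, so numbers were not used as pairs. Selenocysteine codons were read from GENCODE transcripts and promoters from RefSeq; protein sequences were not used here.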

Additional observations from a re-analysis of the deposited data

How the results depend on the processing

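Of 1850 values of single genes under alternatives, 1782 stayed on the same side of the threshold, 50 lost a call, 18 gained one and 0 called values reversed. Most of these values belong to genes and comparisons without a call in the main fit, which had no call to lose. All 50 losses thus fell on the few called values, so the total does not measure how stable the calls were. The least stable were Selenow in TSH-MMI against Empty at 4 weeks, which passed in 5 of 15 alternatives, and Sephs2 in TSH-MMI against Empty at 1 week, in 5 of 16. In TSH against Empty at 1 week, 7 genes were called, and 4 to 6 with a library left out (4 without Empty replicate 1 or TSH replicate 3). In TSH-MMI against Empty at 1 week, 5 were called, 3 without both libraries with thymocyte transcripts, and 3 to 4 with a library left out (3 without Empty replicate 2 or TSH-MMI replicate 3). In TSH against Empty at 4 weeks, 2 were called, 1 with the muscle covariate or only the compared groups, and 1 to 3 with a library left out (1 without Empty replicate 1, TSH replicate 1 or TSH replicate 3). In TSH-MMI against Empty at 4 weeks, 1 was called, 0 to 1 with a library left out, and 0 with no low count filter, the replicate block, limma on log2(FPKM + 1) or log2(FPKM + 0.1), the muscle covariate or only the compared groups. The called gene, Selenow, kept its call in 2 fits with a library left out and lost it in 4. Without Empty replicate 1 the gene called was Selenop (edgeR adjusted p = 0.0452) and not Selenow (0.134). With the muscle covariate 998 of all genes passed in TSH and 389 in TSH-MMI against Empty at 4 weeks, against 2452 and 2558 without it. DESeq2 called 1 in TSH-MMI against TSH at 1 week, 1 in TSH-MMI against Empty-MMI and 1 in the TSH effect at 4 weeks minus 1 week, where limma called 2 with either pseudocount; edgeR called 0 in each, and 0 to 0 with a library left out. In these comparisons, in the same order, DESeq2 called 139, 1223 and 704 of all genes, against 3, 736 and 239 in edgeR. The cause was not tested. The replicate block called 7 and 4 genes at 1 week (TSH and TSH-MMI against Empty) and 2 in TSH against Empty at 4 weeks. Replicate numbers are not shown to pair libraries: of the same-numbered pairs, 1 of 9 at 1 week and 4 of 18 at 4 weeks had deviations correlated above 0.1. Limma on FPKM moved the median of all genes by over 0.1 in some comparisons (by 0.198 at most, in the interaction).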
